A study of Mus musculus with 6 samples.

Results

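The genes of the mouse proteasome were examined in macrophages 1 h after LPS. The members were the rows of the count table whose identifier, without its version, belongs to a protein-coding gene of GENCODE release M21 with a name that starts with Psm, then one letter from a to g, then a digit. This rule found 50 genes among the 55335 rows of the table. It used names and no measured value. Of the 50 genes, 49 passed the filter on low counts. The exception was Psmb11, the catalytic subunit made in the cortical epithelium of the thymus, which had 0 counts in every PBS library and in LPS replicates 1 and 3, and 2 counts in LPS replicate 2.

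The cells were bone marrow-derived macrophages (BMDMs) of C57BL/6 mice, grown from marrow of the long bones of the hind leg in medium conditioned by L929 cells, a fibroblast line that secretes the growth factor M-CSF. The control group received PBS and the other group received LPS, a component of the outer membrane of Gram-negative bacteria, and RNA was taken after 1 h. Both groups were wild type, given as WT in the library names, and no other treatment is given in the labels. Each group had 3 libraries of total RNA, and libraries with the same number came from the same labelled batch. No source states that the libraries came from separate animals, so p-values measure only the spread between these libraries, which may be technical.

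The proteasome breaks down proteins that carry ubiquitin. Its barrel-shaped 20S core is built from rings of alpha subunits, which form the gate, and rings of beta subunits, of which Psmb5, Psmb6 and Psmb7 carry the active sites. The 19S cap binds ubiquitinated proteins, removes the ubiquitin with its lid and unfolds the substrate with a ring of ATPases. In immune cells, and after exposure to interferon, Psmb8, Psmb9 and Psmb10 take the places of Psmb5, Psmb6 and Psmb7 in newly assembled cores, and the resulting immunoproteasome cuts peptides that suit presentation on MHC class I molecules.

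Libraries held between 37787611 and 41516330 counts, and the member genes between 112143 and 154451 of these. Fold changes were computed with edgeR after TMM scaling, whose mean factor was 1.15 in PBS and 0.869 in LPS libraries. The scaling matters here. With TMM the median log2 fold change of all 15687 tested genes was -0.01, whereas without TMM factors (library size alone) it was -0.42, so that a gene close to the middle of the distribution rises or falls with the scaling. Library size alone called 2354 of the 15687 genes higher and 10337 lower, and upper quartile scaling 3704 and 7269. Values per library are given as CPM, meaning a count scaled by the size of its library after TMM adjustment. A floor of 3 counts corresponds to between 0.0630 and 0.0919 CPM, and it covers counting error only. The summed level of 7 macrophage markers lay between 29548 and 30823 CPM in PBS and between 32289 and 32639 CPM in LPS libraries. Most of it came from Lyz2, with a mean of 23272 CPM in PBS and 24224 CPM in LPS libraries. Of these markers 5 were called higher with TMM, Fcgr1 was called lower (log2 fold change -0.48) and Mertk was not called. The 4 T cell markers summed to at most 22.3 CPM in PBS and 30.9 CPM in LPS libraries, nearly all of it from Cd4, and Cd3e, Cd3d and Cd8a had at most 9 counts in any library. The 4 neutrophil markers summed to between 32.6 and 34.7 CPM in PBS and between 42.7 and 44.9 CPM in LPS libraries, with Ly6g at or under 3 counts throughout. Dendritic cell markers (Flt3, Zbtb46 and Xcr1) summed to between 1.20 and 1.45 CPM in PBS and between 4.93 and 6.17 CPM in LPS libraries. B cell, NK cell and erythroid markers stayed at or below 1.25 CPM, and 3 stromal markers at or below 9.80 CPM. The part of these cells in the results below was not tested. In bulk RNA, a change in the number of cells of one type and a change in RNA per cell cannot be told apart.

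On the TMM scale, the proteasome genes as a family moved little after 1 h of LPS. With library size alone their median log2 fold change was -0.35, beside -0.42 for all tested genes. With TMM scaling, 17 of the 49 tested genes were called higher (edgeR quasi-likelihood test, Benjamini-Hochberg adjusted p under 0.05), beside 32.9% of all tested genes, and 11 were called lower, beside 34.9% of all tested genes. The remaining 21 genes were not called. No member reached a log2 change of 1 in either direction with TMM, whereas 10.5% of all tested genes passed that limit upwards and 10.4% downwards. At an unadjusted p under 0.05, 19 members were higher and 11 lower. The 17 genes were higher, and the 11 genes lower, in each of the 3 pairs of libraries with the same number. In 21 members all LPS libraries lay above all PBS libraries, beside 33.9% of tested genes, and in 10 members all lay below, beside 36.6% of tested genes.

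The fold changes of the members covered a narrower range than those of the whole table. The interquartile range of the log2 fold change was 0.20 for the members and 0.74 for all tested genes. With TMM, an absolute log2 fold change under 0.5 was found for 45 of 49 members, or 91.8%, and for 59.9% of all tested genes. Proteasome genes are well expressed, so genes of similar depth were counted as well. Among the 5631 tested genes that averaged 1000 counts or more, 75.01% stayed under 0.5, with 544 genes past a log2 change of 1 upwards and 90 downwards. Of the 40 members with such counts, 39 stayed under 0.5 and 0 passed 1 in edgeR's fit, in DESeq2 and in limma voom. With TMM, 2873 of the 5631 genes were called higher and 1465 lower, beside 16 and 4 of the 40 members. These counts describe the family beside the table, and no test of the set was made.

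**Figure D1:**
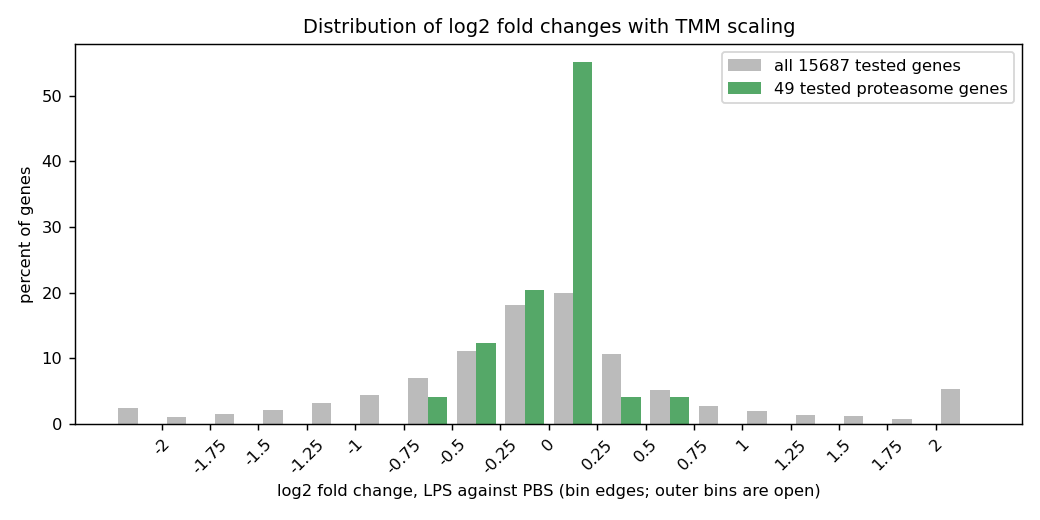
Share of genes (y axis, percent) in bins of the log2 fold change of LPS against PBS with TMM scaling (x axis), for all 15687 tested genes in grey and the 49 tested proteasome genes in green. The green bars end inside -0.75 and 0.75, while the grey bars reach the open bins beyond -2 and 2.

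The median log2 fold change of the members was 0.06 with TMM, -0.35 with library size alone and -0.09 under upper quartile scaling, so the family as a whole has no direction that holds across scalings. Of the 17 genes called higher, 13 were called lower with library size alone, and 7 had a negative but uncalled value with upper quartile scaling. None of the 11 genes called lower turned positive under library size, upper quartile or DESeq2 scaling. Beside TMM, library size and upper quartile scaling lower all values and DESeq2 scaling raises them little, so these scalings could not test the falls. A scaling moves all genes by nearly the same amount, so the distance of the members to other genes is nearly fixed across scalings. The member median lay 0.07 above the median of all genes with TMM, library size, upper quartile and DESeq2 scaling, which is therefore no test of that distance. Among tested genes that averaged 1000 counts or more, the median with TMM was 0.104. The 40 members of that depth had a lower median, 0.075. Across 17 fits that varied the scaling, filter, test, replicate block and libraries, 2 genes were called higher in every fit (Psmb6 and Psmd10) and 7 were called lower in every fit (Psmb8, Psmb9, Psmd5, Psme2b, Psmf1, Psmg3 and Psmc3ip). As the fits include scalings that lower all values, these counts of rises and falls cannot be set against each other.

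The share of all counts that fell on the 31 subunits of the standard 26S proteasome went from 0.276% ± 0.00355 (SD, n = 3) in PBS to 0.227% ± 0.000655 (SD, n = 3) in LPS libraries. After TMM scaling the same 31 genes summed to 2401 ± 33.5 CPM in PBS and 2613 ± 19.8 CPM in LPS libraries. The direction of the summed level is therefore opposite on these scales. Of the 31 subunits, 13 were called higher, 0 lower and 18 not called in edgeR's fit with TMM. Beside them stand 32.9% of all tested genes called higher and 34.9% called lower. Of the 5631 tested genes that averaged 1000 counts or more, 2873 were called higher and 1465 lower. With library size alone 1 of the 31 was called higher and 28 lower, beside 2354 and 10337 of all 15687 tested genes. With TMM there were 17 of the 31 subunits in which LPS libraries lay above all PBS libraries and 1 in which they lay below. The shares of all tested genes were 33.9% and 36.6%. Of the 5631 genes of the depth given above, 2917 lay above and 1527 below.

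**Figure D2:**
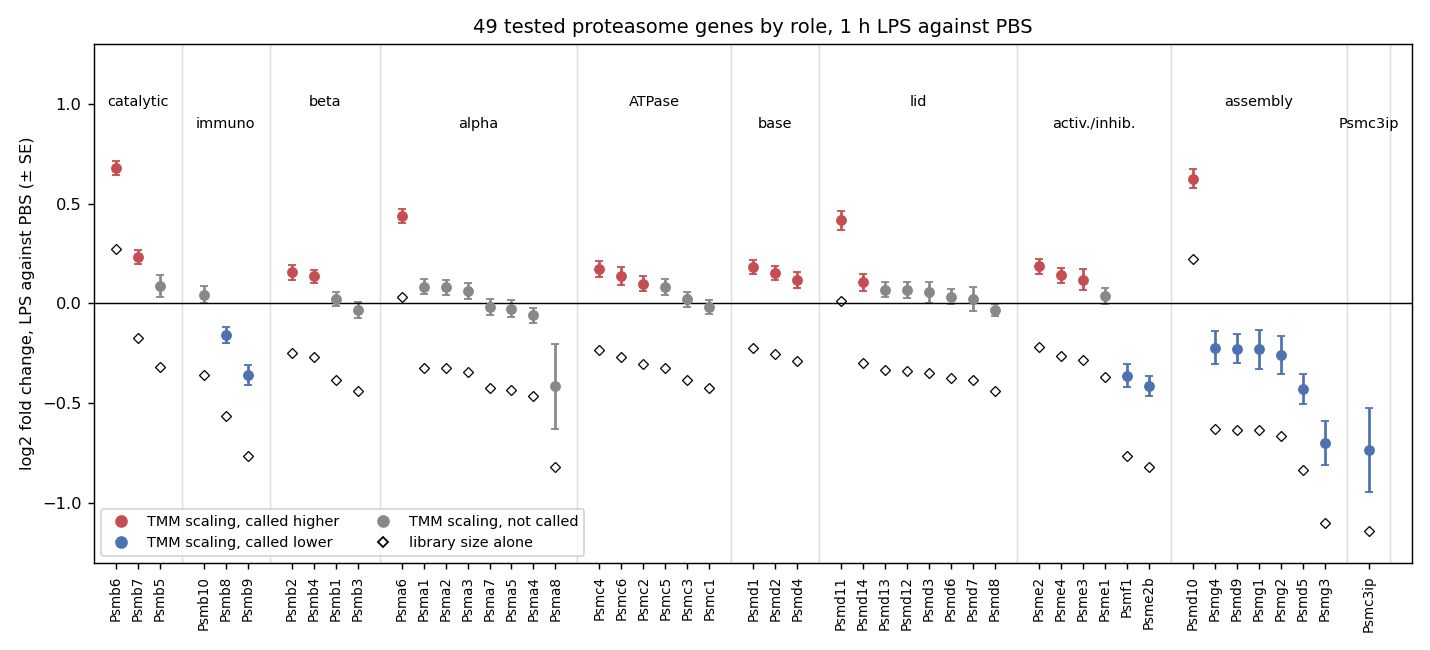
Log2 fold change of LPS against PBS (y axis) for each of the 49 tested genes, grouped by role (x axis). Filled circles give the TMM value with its SE in red where called higher, blue where called lower and grey where not called, and open diamonds give the value with library size alone, which lies about 0.4 lower for every gene and turns 13 of the 17 red genes negative.

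The catalytic subunits are described first. Sequence upstream of the start is shown for Psmb6, the core gene with the highest fold change, for Psmb5, a constitutive catalytic gene that was not called, for Psmb10, the one immunoproteasome gene outside the MHC cluster, and for Psmd10, the other gene called higher in every fit. The windows are from RefSeq on GRCm38.p6, read 5′ to 3′ on the strand of the gene, and were cut back to the bases before the start that no GENCODE exon covers. Capitals mark a match to a searched motif, which is the antioxidant response element in Psmb5 and Psmb6 and the reverse complement of the ETS core in Psmd10. Psmb10 had no match in the printed stretch.
Psmb5, chr14:54618023-54618245, minus strand: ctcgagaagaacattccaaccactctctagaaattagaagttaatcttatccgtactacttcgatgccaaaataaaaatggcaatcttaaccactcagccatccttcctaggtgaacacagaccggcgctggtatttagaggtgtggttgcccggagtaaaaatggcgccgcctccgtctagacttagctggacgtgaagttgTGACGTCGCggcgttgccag
Psmb6, chr11:70525107-70525356, plus strand: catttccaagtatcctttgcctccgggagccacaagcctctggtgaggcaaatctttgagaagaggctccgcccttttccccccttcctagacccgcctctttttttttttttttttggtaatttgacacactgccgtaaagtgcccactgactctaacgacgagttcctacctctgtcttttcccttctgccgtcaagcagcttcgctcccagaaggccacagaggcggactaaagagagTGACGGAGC
Psmb10, chr8:105938445-105938642, minus strand: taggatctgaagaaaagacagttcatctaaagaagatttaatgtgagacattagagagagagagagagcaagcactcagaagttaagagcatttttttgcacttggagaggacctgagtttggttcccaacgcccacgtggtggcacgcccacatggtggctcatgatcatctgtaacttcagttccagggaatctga
Psmd10, chrX:140956729-140956906, minus strand: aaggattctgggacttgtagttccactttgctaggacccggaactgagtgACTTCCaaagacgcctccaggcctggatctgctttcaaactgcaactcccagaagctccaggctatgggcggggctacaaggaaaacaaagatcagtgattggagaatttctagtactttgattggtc

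Psmb6 carries the caspase-like active site and is at chr11:70525367-70527858 on the plus strand of GRCm38. Its level was 125.6, 120.4 and 116.1 CPM in the PBS libraries and 191.6, 194.5 and 192.9 CPM in the LPS libraries. Every LPS library lay above every PBS library, and the gap exceeded the spread within either group. The log2 fold change was 0.68 ± 0.03 (SE), with an edgeR adjusted p of 6.30e-12, a rise of 1.60-fold. It stayed positive with library size alone, at 0.27. Reads that match the pseudogene Psmb6-ps2, 96.2% identical over 265 bp, could be counted for either gene.

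Psmb7, the trypsin-like subunit, is at chr2:38588036-38644087 on the minus strand. Its level was 59.7, 61.0 and 59.0 CPM in PBS libraries and 69.7, 71.3 and 70.3 CPM in LPS libraries, again without overlap. The log2 fold change was 0.23 ± 0.04 (SE) with TMM (edgeR adjusted p = 1.43e-05), and it was negative with library size alone, at -0.17. Exons of Psmb7 share 405 bp with Nek6 on the other strand, and the strand setting of the counting is not given in the sources used here.

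Psmb5, the chymotrypsin-like subunit, is at chr14:54614119-54618022 on the minus strand. Its level was 28.5, 31.2 and 32.4 CPM in PBS libraries and 31.3, 34.7 and 32.0 CPM in LPS libraries. The groups overlapped, and the log2 fold change of 0.09 ± 0.05 (SE) did not pass the test (edgeR adjusted p = 0.168). Psmb5 has a near-identical copy, Gm3375, with 98.9% identity over 796 bp, so its level is uncertain where reads could go to either.

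The immunoproteasome subunits Psmb9 and Psmb8 lie close together in the MHC class II region of chromosome 17, on either side of Tap1, a subunit of the peptide transporter that feeds MHC class I molecules. Psmb9, at chr17:34181987-34187764 on the minus strand, was at 50.3, 52.6 and 45.6 CPM in PBS libraries and at 37.9, 39.5 and 38.4 CPM in LPS libraries. All LPS libraries lay below all PBS libraries. Its log2 fold change was -0.36 ± 0.05 (SE), with an edgeR adjusted p of 5.95e-06, and it was negative and called in all 17 fits.

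Psmb8, at chr17:34197721-34201454 on the plus strand, was at 143.2, 149.1 and 135.8 CPM in PBS libraries and at 123.8, 134.1 and 125.3 CPM in LPS libraries. The groups did not overlap, but the distance between them was small beside their spread. The log2 fold change was -0.16 ± 0.04 (SE), with an edgeR adjusted p of 0.00198. It was also negative and called in every fit.

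Psmb10, at chr8:105935735-105938444 on the minus strand, was at 86.1, 87.0 and 81.5 CPM in PBS libraries and at 88.4, 91.4 and 82.8 CPM in LPS libraries. The groups overlapped and the log2 fold change of 0.04 ± 0.04 (SE) did not pass the test (edgeR adjusted p = 0.349); it was called lower both with library size alone, at -0.36, and under upper quartile scaling, at -0.10. None of the 3 expressed immunoproteasome subunits was therefore called higher after 1 h of LPS with TMM scaling, and 2 were called lower. Of all tested genes, 32.9% were called higher and 34.9% lower with TMM. All 3 were called lower with library size alone and under upper quartile scaling, beside 10337 and 7269 of all 15687 tested genes. The summed level of the 3 immunoproteasome subunits was 277 ± 13.1 CPM in PBS and 254 ± 9.81 CPM in LPS libraries. That of the 3 constitutive catalytic subunits was 211 ± 3.38 and 296 ± 4.01 CPM (SD, n = 3).

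**Figure D3:**
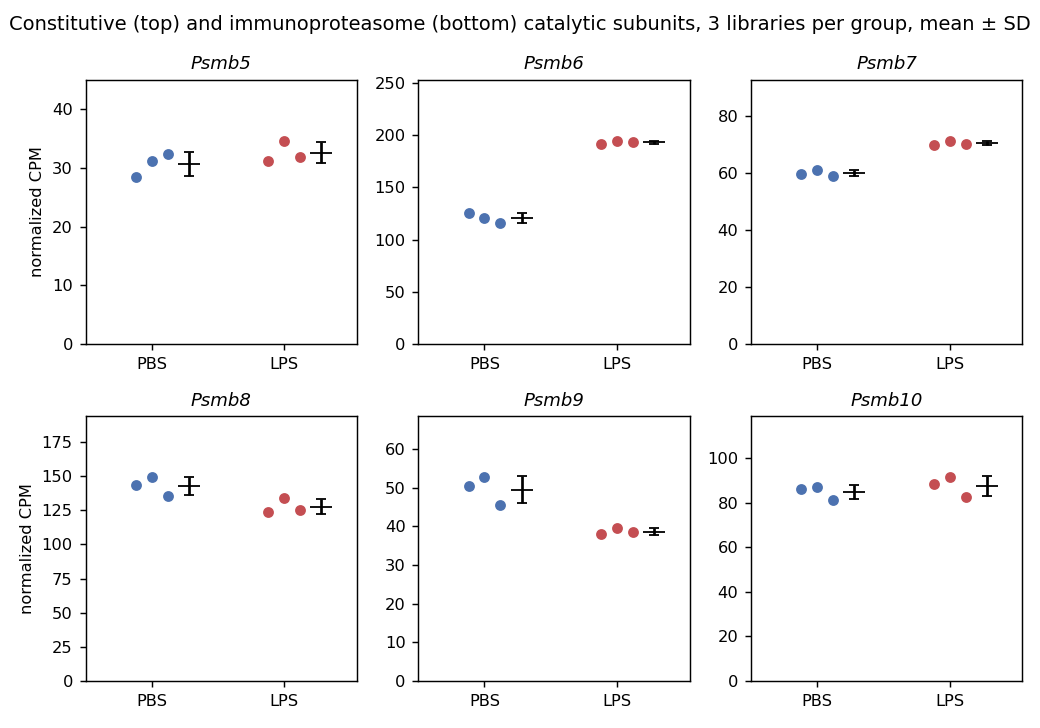
Normalized CPM (y axis, from 0) of the constitutive catalytic subunits Psmb5, Psmb6 and Psmb7 in the top row and of the immunoproteasome subunits Psmb8, Psmb9 and Psmb10 in the bottom row, with a point for each of 3 PBS and 3 LPS libraries and the mean ± SD beside them. Psmb6 and Psmb7 lie higher in every LPS library and Psmb8 and Psmb9 lower with TMM scaling, while Psmb5 and Psmb10 overlap between the groups, and Psmb7 turns negative with library size alone.

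A ratio of genes within a library does not depend on the scaling between libraries. The balance of each immunoproteasome subunit to the subunit it replaces was therefore taken in every library as the log2 ratio of counts per kb of exon. Psmb9 to Psmb6 was -2.29, -2.16 and -2.32 in PBS libraries and -3.31, -3.27 and -3.29 in LPS libraries. This is a change of -1.03, from a ratio of 0.210 to one of 0.102, and each LPS library lay below each PBS library. The change reflects both members of the pair, Psmb6 with the higher and Psmb9 with the lower level in LPS.

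Psmb8 to Psmb5 was 0.42, 0.34 and 0.16 in PBS libraries and 0.07, 0.04 and 0.06 in LPS libraries, a change of -0.25. The spread in PBS was wide, with an SD of 0.13 on the log2 scale, and the lowest PBS library came within 0.1 of the LPS libraries. Psmb10 to Psmb7 was 1.53, 1.52 and 1.47 in PBS libraries and 1.35, 1.36 and 1.24 in LPS libraries, a change of -0.19. In all 3 pairs the immunoproteasome form was lower relative to its constitutive partner in every LPS library. For single genes with TMM, every LPS library lay above the PBS libraries in 33.9% of tested genes and below in 36.6%. In the last pair, Psmb7 had a log2 fold change of 0.23 with TMM and Psmb10, not called, one of 0.04. With library size alone the values were -0.17 and -0.36. The two-sided exact permutation p was 0.1 for each pair, which is the smallest value that 3 libraries against 3 can give, so that none could pass 0.05, and the same holds after adjustment over the 3 pairs.

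The size of a ratio between genes depends on the length used. With the length of the coding transcript in place of all annotated exons, the mean ratio of Psmb8 to Psmb5 was 2.57 in PBS and 2.16 in LPS, that of Psmb9 to Psmb6 0.242 and 0.118, and that of Psmb10 to Psmb7 1.25 and 1.10. The changes between the groups are the same on both lengths. On both lengths Psmb9 had the lowest level relative to its partner.

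**Figure D4:**
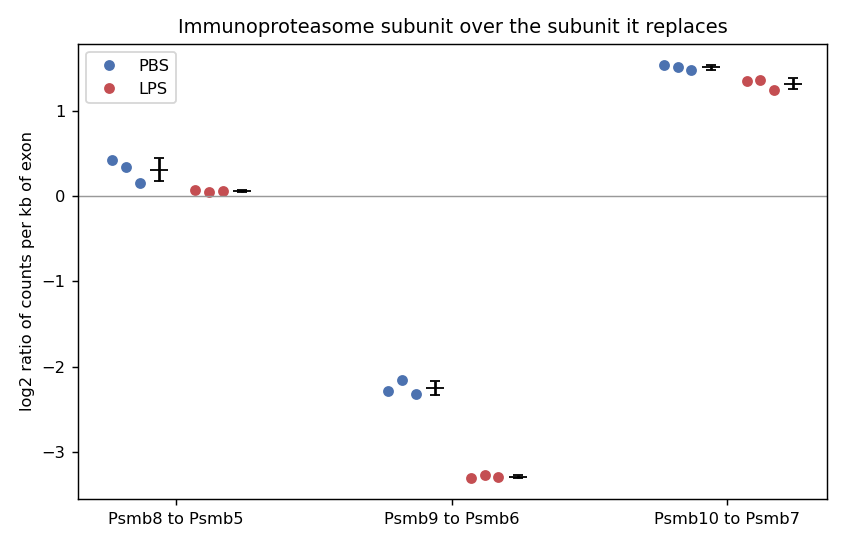
Log2 ratio of counts per kb of exon of each immunoproteasome subunit to the constitutive subunit it replaces (y axis), for the 3 pairs (x axis), with 1 point for each PBS (blue) and LPS (red) library and mean ± SD beside them. The LPS points lie below the PBS points in all pairs, by 1.03 for Psmb9 to Psmb6, 0.25 for Psmb8 to Psmb5 and 0.19 for Psmb10 to Psmb7.

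Among the 8 alpha ring genes, 1 was called higher with TMM scaling, beside 32.9% of all tested genes, and 7 were not called. With the replicate block 3 were called higher, adding Psma1 and Psma2 (edgeR adjusted p = 0.0216 and 0.0227), and DESeq2 also called 3 higher. With library size alone 7 of the 8 were called lower, beside 10337 of all 15687 tested genes. The gene that rose was Psma6, at chr12:55384222-55418454 on the plus strand, with 58.1, 54.5 and 55.5 CPM in PBS libraries and 75.5, 77.0 and 75.3 CPM in LPS libraries. The groups did not overlap, and the log2 fold change was 0.44 ± 0.04 (SE, edgeR adjusted p = 8.74e-09), falling to 0.03 with library size alone. The 6 other standard alpha subunits had log2 fold changes between -0.06 (Psma4) and 0.08 (Psma1). Psma8, an alternative alpha subunit made mainly in testis, had a low level, with 1.66, 1.09 and 1.32 CPM in PBS libraries and 1.22, 0.980 and 0.852 CPM in LPS libraries. Its groups overlapped, and its log2 fold change of -0.42 ± 0.21 (SE) did not pass the test (edgeR adjusted p = 0.0914).

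Of the 4 non-catalytic beta subunits, Psmb2 and Psmb4 were called higher with TMM scaling, beside 32.9% of all tested genes, and Psmb1 and Psmb3 were not called. Psmb2 was at 52.6, 51.8 and 51.4 CPM in PBS libraries and at 58.9, 56.0 and 58.6 CPM in LPS libraries, without overlap and with a log2 fold change of 0.16 ± 0.04 (SE, edgeR adjusted p = 0.00158). It was negative with library size alone, at -0.25. Psmb3 was at 47.6, 46.2 and 46.1 CPM in PBS libraries and at 44.6, 46.4 and 45.7 CPM in LPS libraries. Its groups overlapped, and the log2 fold change was -0.03. Psmb1 had a log2 fold change of 0.02.

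In the base of the 19S cap, 3 of the 6 ATPases that drive unfolding were called higher with TMM scaling (Psmc4, Psmc6 and Psmc2) and 3 were not called. Among all tested genes 32.9% were called higher. Psmc4 was at 61.4, 60.3 and 55.7 CPM in PBS libraries and at 66.8, 65.9 and 67.4 CPM in LPS libraries, without overlap. The log2 fold change was 0.17 ± 0.04 (SE, edgeR adjusted p = 0.00115). It turned to -0.23 with library size alone. Psmc1 was at 87.1, 85.3 and 85.8 CPM in PBS libraries and at 83.1, 88.1 and 83.7 CPM in LPS libraries, with overlapping groups and no call. The 3 other base subunits, the scaffolds Psmd1 and Psmd2 and the ubiquitin receptor Psmd4, were all called higher with TMM scaling, and all lower with library size alone. Of the 5631 tested genes that averaged 1000 counts or more, 2873 were called higher with TMM. Library size alone called 10337 of all 15687 tested genes lower. Psmd1 was at 101.7, 95.6 and 96.1 CPM in PBS libraries and at 109.0, 111.4 and 112.4 CPM in LPS libraries. All LPS libraries were above the PBS libraries, by a log2 fold change of 0.18 ± 0.04 (SE, edgeR adjusted p = 0.000206). Psmd4 was at 69.1, 70.7 and 67.9 CPM in PBS libraries and at 74.1, 78.6 and 72.8 CPM in LPS libraries. Its groups were also separate, with a log2 fold change of 0.12.

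Of the 8 subunits of the lid, Psmd11 and Psmd14 were called higher with TMM scaling, beside 32.9% of all tested genes, and 6 were not called. Psmd11, a scaffold subunit at chr11:80428615-80473248 on the plus strand, was at 37.5, 33.7 and 37.3 CPM in PBS libraries and at 47.3, 49.1 and 48.4 CPM in LPS libraries. All LPS libraries lay above all PBS libraries, with a log2 fold change of 0.42 ± 0.05 (SE, edgeR adjusted p = 3.40e-07) that shrank to 0.01 with library size alone. Psmd14, the deubiquitinase of the lid, had a log2 fold change of 0.11 ± 0.04 (SE, edgeR adjusted p = 0.0336), which was negative under both library size and upper quartile scaling. Psmd8 was at 283.6, 279.6 and 273.9 CPM in PBS libraries and at 273.5, 271.5 and 272.8 CPM in LPS libraries, so that the groups did not overlap, but its log2 fold change of -0.03 did not pass the test (edgeR adjusted p = 0.354).

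Per kb of exon, Psmd8 had the highest level of all members in PBS, at 91.3 ± 1.60 CPM per kb, followed by Psmb6 at 64.5 ± 2.54 and Psmd2 at 57.3 ± 1.05 (SD, n = 3). In LPS libraries Psmb6 came ahead, at 103 ± 0.789 CPM per kb, with Psmd8 next at 89.2 ± 0.324. The neighbouring levels did not overlap within their SD in either group. The exchange of these leading places also held with coding transcript lengths, while lower places depended on the length used. The subunits stand in fixed proportions in the assembled particle, while the level per kb of exon in PBS libraries ranged from 5.67 CPM per kb for Psmd11 to that of Psmd8 among the 31 standard subunits. With coding transcript lengths Psmd11 was at 22.2 CPM per kb, and the range ran from 16.4 for Psmd7 to 184.5 for Psmd8. Among the catalytic genes the order in PBS libraries was Psmb6, Psmb10 at 49.8 ± 1.75, Psmb8 at 42.2 ± 1.97, Psmb5 at 34.2 ± 2.21, Psmb7 at 17.5 ± 0.303 and Psmb9 at 13.5 ± 0.982 CPM per kb, with no overlap of neighbours within their SD. With coding transcript lengths the order was Psmb6, Psmb8, Psmb10, Psmb7 at 51.6 ± 0.894, Psmb9 at 36.6 ± 2.66 and Psmb5 at 34.2 ± 2.21 CPM per kb, of which Psmb9 and Psmb5 overlap within their SD.

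Activators bind the ends of the core in place of the 19S cap. Psme1 and Psme2 form the 11S activator, which interferon induces together with the immunoproteasome. Psme1 was at 104.8, 107.2 and 107.8 CPM in PBS libraries and at 111.9, 114.1 and 102.1 CPM in LPS libraries, with overlap and no call (edgeR adjusted p = 0.434). Psme2 was at 66.0, 64.9 and 66.9 CPM in PBS libraries and at 73.2, 78.2 and 73.8 CPM in LPS libraries, without overlap. Its log2 fold change was 0.19 ± 0.04 (SE, edgeR adjusted p = 0.000268) with TMM and -0.22 with library size alone.

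Psme2b, a gene with a single coding transcript at chr11:48945354-48946190, went the other way, with 41.6, 43.9 and 45.3 CPM in PBS libraries and 32.4, 34.9 and 31.0 CPM in LPS libraries. All LPS libraries were below the PBS libraries, and the log2 fold change was -0.41 ± 0.05 (SE, edgeR adjusted p = 1.01e-06), and it was called lower in all 17 fits. Psme2 and Psme2b are 99.4% identical over 794 bp, so the division of reads between them is uncertain and both values depend on how the authors' counting handled reads with several matches. The activators Psme3 and Psme4, which act in the nucleus, were called higher with TMM scaling, with log2 fold changes of 0.12 and 0.14, and both were negative under both library size and upper quartile scaling.

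Psmf1, an inhibitor of the proteasome that binds the core, is at chr2:151715812-151744186 on the minus strand. It was at 22.1, 20.0 and 21.8 CPM in PBS libraries and at 16.6, 16.5 and 16.6 CPM in LPS libraries. The LPS libraries were nearly equal and all below the PBS libraries. The log2 fold change was -0.36 ± 0.06 (SE, edgeR adjusted p = 2.24e-05), called lower in all 17 fits.

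The genes for assembly chaperones, which help to build the core and the base and then leave, were mostly called lower. Of 7 such genes, 6 were called lower in edgeR's fit, beside 34.9% of all tested genes, and 1 was called higher, with a median log2 fold change of -0.23. DESeq2 called 3 of the 7 lower and 1 higher, with adjusted p of 0.127 for Psmg1, 0.0704 for Psmg2 and 0.0861 for Psmg4. The 6 genes were also called lower under both library size and upper quartile scaling. As both lower all values beside TMM, and called 10337 and 7269 of all 15687 tested genes lower, this is no separate check. The standard subunits had a median of 0.08 with TMM, but 28 of the 31 were called lower with library size alone, and the difference between these groups of genes was not tested. Their sum was 96.5 ± 3.25 CPM in PBS and 90.6 ± 1.68 CPM in LPS libraries (SD, n = 3).

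Psmg3, a chaperone of the alpha ring at chr5:139823592-139826885 on the minus strand, was at 5.65, 4.71 and 5.35 CPM in PBS libraries and at 3.49, 3.06 and 3.14 CPM in LPS libraries. All LPS libraries lay below all PBS libraries, and the log2 fold change was -0.70 ± 0.11 (SE, edgeR adjusted p = 2.32e-05). Exons of Psmg3 share 280 bp with Gm26938 on the same strand, so its level is uncertain there. The other core chaperones moved less. Psmg2, Psmg1 and Psmg4 had log2 fold changes of -0.26, -0.23 and -0.22, with edgeR adjusted p of 0.0239, 0.0427 and 0.0231, and the groups of Psmg1 and Psmg2 overlapped. All of these genes were at a low level, under 10 CPM.

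Among the chaperones of the base, Psmd5 was at 34.6, 27.3 and 30.0 CPM in PBS libraries and at 23.9, 20.99 and 23.4 CPM in LPS libraries. The groups did not overlap, and the log2 fold change was -0.43 ± 0.07 (SE, edgeR adjusted p = 5.36e-05). Psmd9, whose exons share 1849 of their 7248 bp with Gm26745 on the other strand, fell by 0.23 on the log2 scale (edgeR adjusted p = 0.0099). Psmd10, also known as gankyrin, was the exception. At chrX:140948429-140956728 on the minus strand, it was at 18.8, 19.3 and 18.6 CPM in PBS libraries and at 28.8, 28.8 and 29.6 CPM in LPS libraries. This rise of 1.54-fold, a log2 fold change of 0.63 ± 0.05 (SE, edgeR adjusted p = 2.51e-09), came next after Psmb6 among the members and was called in all 17 fits, at 0.22 with library size alone.

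**Figure D5:**
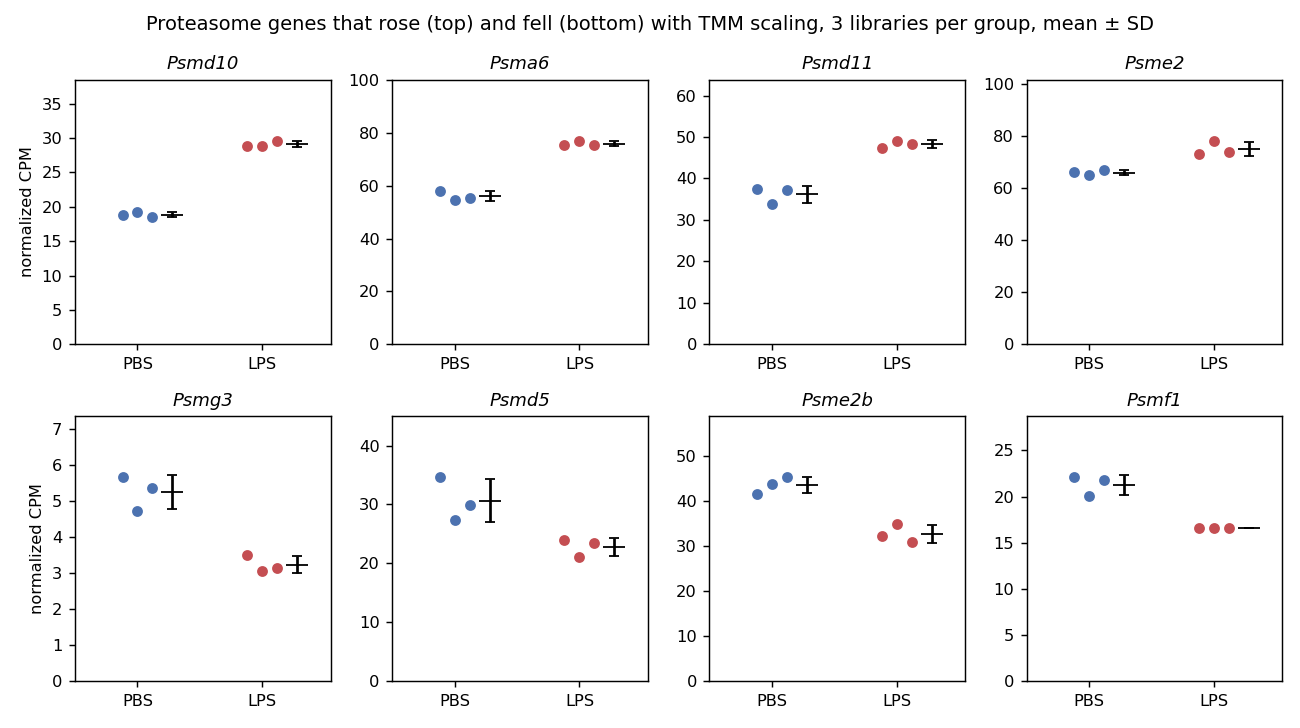
Normalized CPM (y axis, from 0) in each of 3 PBS and 3 LPS libraries, with mean ± SD, for 4 genes called higher with TMM scaling (Psmd10, Psma6, Psmd11 and Psme2, top) and 4 called lower (Psmg3, Psmd5, Psme2b and Psmf1, bottom). The groups are separate in every panel, and Psme2 turns negative with library size alone.

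Psmc3ip matched the naming rule but is not a proteasome subunit: it is a recombination factor named for binding to Psmc3. It was at 1.66, 1.28 and 1.34 CPM in PBS libraries and at 0.715, 1.10 and 0.764 CPM in LPS libraries. The groups did not overlap, and the log2 fold change was -0.73 ± 0.21 (SE, edgeR adjusted p = 0.00495), the most negative value among the members, at a level per kb that was the lowest of the tested members except Psma8. Its exons overlap those of Mlx over 385 bp.

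In all, 25 of the 50 members overlap an exon of another gene or have a copy of at least 95% identity. Without those 25 genes, 11 members were called higher and 5 lower. Psmb6, Psmb5, Psmb7, Psmb8, Psmb9, Psmd9, Psmd11 and Psmg3 are among those 25, whereas Psmb10, Psmd10, Psma6, Psmf1 and Psmd5 are not.

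Psmb9 and Tap1 start from the same stretch of DNA in opposite directions. Their RefSeq starts, at 34187330 and 34187556 on chromosome 17, are 226 bp apart, and their exons overlap by 212 bp in GENCODE. Tap1 was at 132.5, 131.9 and 125.8 CPM in PBS libraries and at 96.9, 97.9 and 96.4 CPM in LPS libraries. It was lower in every LPS library, by a log2 fold change of -0.42 ± 0.03 (SE, edgeR adjusted p = 3.97e-09). Both genes thus had lower levels in every LPS library. Tap2, the partner of Tap1 in the transporter and a gene of the same cluster, had a log2 fold change of 0.07 and was not called (edgeR adjusted p = 0.213). Reads in the overlap cannot be assigned without knowing the strand setting.

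Genes that work with the proteasome were taken from 4 lists, of which 41 of 42 genes were found by symbol. Beside their counts with TMM stand the shares of all tested genes, 32.9% higher and 34.9% lower. Of all 15687 tested genes, library size alone called 2354 higher and 10337 lower, and upper quartile scaling 3704 and 7269. Of 12 genes for MHC class I presentation, 7 were called higher and 2 lower with TMM scaling, but 0 higher and 12 lower with library size alone, and 3 and 3 under upper quartile scaling. H2-K1, a class I heavy chain that shares sequence with its relatives, was at 1197, 1282 and 1185 CPM in PBS libraries and at 1505, 1573 and 1493 CPM in LPS libraries, a log2 fold change of 0.32 that was negative with library size alone, at -0.09. With TMM, the genes called lower with Psmb8 and Psmb9 were Tap1 and Tapbpl, while H2-K1 and 6 others were called higher and 3 were not called.

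Of 16 other subunits, assembly factors and associated proteins, 8 were called higher and 3 lower with TMM scaling, 2 and 13 with library size alone, and 6 and 7 under upper quartile scaling. Txnl1, a thioredoxin-like protein bound to the 19S cap, was at 50.6, 51.7 and 50.4 CPM in PBS libraries and at 131.9, 126.6 and 135.2 CPM in LPS libraries. The groups were far apart, and the log2 fold change of 1.37 ± 0.04 (SE, edgeR adjusted p = 3.64e-16) exceeded that of every member. Zfand5, a zinc finger protein that stimulates the proteasome, followed with 0.93. The subunits Adrm1 and Sem1, whose names fall outside the rule, and the core maturation factor Pomp had log2 fold changes of 0.26, 0.29 and 0.11, and all 3 were negative with library size alone. Zfand5, Adrm1, Sem1 and Pomp, and below Ddi2, Vcp and Nfe2l1, were named after their values were seen.

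Nfe2l1 encodes NRF1, the transcription factor that restores proteasome gene expression when the proteasome is inhibited, after release from the endoplasmic reticulum with Vcp and cleavage by Ddi2. Of 7 genes of this axis and its relative Nfe2l2, 4 were called higher and 1 lower with TMM scaling, and 1 higher and 6 lower with library size alone. Nfe2l2, which encodes NRF2, was at 239.7, 238.9 and 248.6 CPM in PBS libraries and at 756.0, 736.0 and 768.4 CPM in LPS libraries, a log2 fold change of 1.64 ± 0.03 (SE, edgeR adjusted p = 8.98e-18). Nfe2l1 had 0.14 and Vcp 0.26, both negative with library size alone, and Ddi2 fell by 0.88 on the log2 scale (edgeR adjusted p = 4.50e-14). Of 6 genes for ubiquitin and its activating enzymes, 3 were called higher and 2 lower with TMM scaling. Uba6, one of the enzymes that activate ubiquitin, was at 55.1, 52.4 and 54.3 CPM in PBS libraries and at 96.5, 89.4 and 98.3 CPM in LPS libraries. The groups did not overlap, and the log2 fold change was 0.81 ± 0.04 (SE, edgeR adjusted p = 4.98e-12).

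RefSeq gave 45 promoter windows, each from 250 bases before to 50 after a start, for 42 of the 50 members. Both strands were searched for letters of 5 motifs, whose matches may overlap each other. The ETS core GGAAGT was in 22 of 45 windows, or 48.9%, and in 23.8% of the 32851 windows of all genes. The antioxidant response element TGACNNNGC, the letters bound by factors such as NRF1 and NRF2, was in 6 windows, or 13.3%, and in 12.4% of all windows. Those windows belong to Psmb5, Psmb6, Psmc6, Psmd9, Psmd12 and Psme4. In Psmb6, whose stretch is printed above, the match ends at the last base before the start.

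For the interferon pathway, GAAANNGAA was in 7 windows, or 15.6%, and in 8.6% of all windows, and TTCNNNGAA, the gamma-activated site, was in 3 windows, or 6.7%, and in 8.3% of all windows. The NF-kB consensus was in 1 window, or 2.2%, that of Psmd12, and in 4.5% of all windows. The windows of Psmb8 and Psmb9 lie wholly in exons annotated by GENCODE and are not printed. Of the immunoproteasome genes, Psmb8 held a TTCNNNGAA match. These matches are descriptions of letters and say nothing about binding in these cells.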

How the data were processed

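Total RNA of BMDMs was sequenced in 6 libraries, 3 given PBS and 3 given LPS for 1 h, and groups were taken from the sample labels. According to the submitters' notes and the methods, the authors checked reads with FastQC 0.11.9, aligned them to GRCm38 with HISAT2 2.1.0, used SAMtools 1.17 and counted reads per gene with featureCounts 2.0.0. The authors deposited raw counts without normalization. The annotation release, strand setting and treatment of reads with several matches are not given in the sources used here, although the library kit is stranded, so genes with overlaps or copies are uncertain. Of 55335 identifiers, 54587 are identical to GENCODE M21 and 55154 match it without the version.

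From the counts, edgeR 4.0.16 (R 4.3.3) was run on the whole table with its default filter (15687 genes), TMM scaling and its quasi-likelihood F test. P-values were adjusted by Benjamini and Hochberg's method across the 15687 genes. SEs were derived from the F statistic. The common biological coefficient of variation was 0.0426. Replicates of a group differed by between 5.41 and 20.3 times Poisson sampling noise (mean squared difference). Ratios between genes used counts per kb of merged exons and a two-sided exact permutation test. Copies were sought with BLAST 2.17.0. The functions were tested on simulated data.

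The pairing of libraries comes from the labels, which give each number as a batch. For libraries with the same number, deviations from the group mean correlated between -0.0139 and 0.0822 over genes, against a mean of -0.0178 for different numbers. The main fit has no replicate block, as in the study's methods. Alternatives were DESeq2 1.42.0, limma 3.58.1 with voom, DESeq2 size factors, library size and upper quartile scaling, other filters, the replicate block and leaving out libraries.

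The members and gene lists were chosen with earlier results of these data known. Genes named with all library values were the catalytic subunits, Psme1, Psme2, the members with the 5 highest and 5 lowest called log2 fold changes at a mean of at least 50 counts, the extremes of each role and the most changed genes of each list. Genes named beyond that rule were chosen after their values were seen. A gene that this rule selects from the lists is not reported here.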

Additional observations from a re-analysis of the deposited data

How the results depend on the processing

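Most of the higher calls depended on the scaling. With library size alone, 2 members were higher and 45 lower, 2 of them past a log2 change of 1 (Psmg3 and Psmc3ip), and the members' median was -0.35. Upper quartile scaling gave 5 higher and 23 lower with a median of -0.087, and scaling to the summed counts of the 31 subunits of the 26S proteasome, added after seeing the data, gave 5 higher and 21 lower with a median of -0.067. With the genes that have overlaps or copies left out, also added after seeing the data, 11 were higher and 5 lower. For the lists of other genes, library size alone gave 2 higher and 13 lower associated factors, 1 and 6 genes of the NRF1 axis, 1 higher gene for ubiquitin and 0 and 12 for MHC class I. Upper quartile scaling and the 26S sum each gave 7 lower associated factors, 2 higher genes of the NRF1 axis and 3 higher for MHC class I, and DESeq2 gave 1 lower for MHC class I. Leaving out a library gave between 1 and 3 lower associated factors, with 1 without PBS replicate 1 or LPS replicate 2, and between 1 and 2 lower genes for MHC class I, with 1 without LPS replicate 3. At a log2 change of 0.5 in place of 1, 2 were higher and 2 lower.

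Of the 31 members with a positive log2 fold change under TMM, 27 were negative with library size alone, 21 under upper quartile scaling and 18 with the 26S sum. The genes below are only the members given above with their value in every library and the list genes named in the text. Other called members reversed as well, such as Psmd14, Psme3 and Psme4 with library size alone and under upper quartile scaling. Counting those called in either fit, the genes of this selection that reversed with library size alone were Psmb10 (-0.36), Psmb5 (-0.32), Psmb7 (-0.17), Psme1 (-0.37), Psme2 (-0.22), Psmc4 (-0.23), Psmd1 (-0.22), Psmd4 (-0.29), Psmb2 (-0.25), H2-K1 (-0.086), Adrm1 (-0.15), Sem1 (-0.11), Pomp (-0.29), Vcp (-0.14), Nfe2l1 (-0.27) and Tap2 (-0.34). Under upper quartile scaling they were Psmb10 (-0.10), Psme1 (-0.11), Psmd4 (-0.025), Pomp (-0.029) and Nfe2l1 (-0.0048), and with the 26S sum Psmd4 (-0.0040) and Pomp (-0.0086). The median of all genes was 0.0055 with DESeq2 size factors and in DESeq2.

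The replicate block gave 19 higher and 11 lower, adding Psma1 and Psma2 (edgeR adjusted p = 0.0216 and 0.0227), and changed no other call. Leaving out a library gave between 14 and 18 higher and between 7 and 10 lower members, with 7 lower without LPS replicate 1, and kept between 14 and 16 of the 17 higher and between 7 and 10 of the 11 lower calls. Psmd4 was no longer called without LPS replicate 2 (edgeR adjusted p = 0.0683), Pomp was not called without PBS replicate 1 or LPS replicate 3, and Psma8 was called lower without PBS replicate 2 (edgeR adjusted p = 0.0333). With 3 libraries per group and 3 pairs, the ratios could not pass an exact test. Lowly expressed members (Psma8, Psmc3ip and the Psmg genes) had the widest SEs, and Psmb11 could not be assessed at this depth.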
